A study of Mus musculus with 6 samples.

Results

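The interleukin-1 (IL-1) family genes described here comprised 4 ligands (Il1a, Il1b, Il18 and Il33), 3 antagonists or decoys (Il1rn, Il1r2 and Il18bp) and 3 receptor chains (Il1r1, Il1rap and Il1rl1). These 10 genes were chosen by symbol from 32285 genes listed for each library. Their unique molecular identifiers (UMIs, 1 per captured transcript) were summed within each library and cell type. The questions were which cells held the transcripts of ligand, antagonist and receptor in wild-type controls, and how these levels differed in Nlrp3-/- mice.

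IL-1α and IL-1β both signal through the receptor IL-1R1, which needs the accessory chain encoded by Il1rap. The antagonist encoded by Il1rn occupies IL-1R1 without signaling, and IL-1R2 binds IL-1 as a decoy that lacks a signaling domain. IL-18 is neutralized by the binding protein encoded by Il18bp, and IL-33 signals through ST2, the product of Il1rl1, again with the chain encoded by Il1rap. IL-1β and IL-18 are made as precursors that caspase-1 cuts once an inflammasome such as NLRP3 has assembled. Transcript levels therefore do not report how much mature cytokine was released.

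Cells came from the enthesis of the mouse rotator cuff, where the supraspinatus tendon inserts into bone, at 7 days post injury (dpi) and repair. Adult C57BL/6 wild-type controls gave 3 droplet libraries, and mice lacking Nlrp3 in all cells gave 3. All mice of both groups had the tear and the repair, and no uninjured enthesis was in the series. Tissue was pooled for each preparation, the number of animals per library was not given, and p-values measure only the spread between these libraries. The titles name Nlrp3 for every knockout library, while the genotype labels of Nlrp3-/- replicates 2 and 3 read Nlrp4 and Nlrp5 knockout. Nlrp3 itself had 92.7 to 165 CPM (counts per 1e+06 UMIs) in the wild-type libraries and 0 UMIs in each knockout library. Xist stood at 0.0236 to 0.102 CPM in wild type and at 784 to 947 CPM in Nlrp3-/-, so genotype and sex cannot be told apart in any comparison between groups.

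The libraries held 97042713 to 134901999 UMIs, and 67045 cells entered the classes used here. In Nlrp3-/- replicate 1, 53.8% of the cells fell into shallow clusters that hardly any other library shared, and these were set aside, against 0.167% to 0.471% in the other libraries. The median depth was 1813 UMIs in that library and 3834.5 to 6682 UMIs in the others. Any 2 libraries shared 30 to 125 cell barcodes, at most 0.794% of the smaller one. Class names mark resemblance to a type by its markers, so neutrophils stand for neutrophil-like cells, and likewise for each other class. Neutrophils made up 31.6% to 40.7% of the classed cells in wild type and 21.1% to 25.8% in Nlrp3-/-. The mature part of them was 52.7% to 72.8% in wild type and 20.4% to 55.8% in Nlrp3-/-. Free RNA below means the summed UMIs of near-empty barcodes (100 UMIs or fewer), which also reach droplets that hold cells.

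Levels are CPM, with the UMIs of the same class and library as the total. They count transcripts at the 3′ end, do not grow with gene length, and are given for wild-type replicates 1, 2 and 3 in that order unless another order is named.

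Il1a and Il1b are neighbors on chromosome 2, at chr2:129299610-129309972 and chr2:129364570-129371139 on the minus strand (GENCODE annotation of GRCm38). Their promoters are shown because both genes had their highest levels in the same neutrophil and macrophage subsets. The sequences are the 250 bases before the RefSeq start on GRCm38.p6, written 5′ to 3′ on the gene's strand, at chr2:129309973-129310222 and chr2:129371140-129371389. Capitals mark every match, on either strand, to the TATA box TATAAA, the E-box motif CACGTG, the PU.1 core motif GAGGAA or the AP-1 motif TGANTCA:
Il1a: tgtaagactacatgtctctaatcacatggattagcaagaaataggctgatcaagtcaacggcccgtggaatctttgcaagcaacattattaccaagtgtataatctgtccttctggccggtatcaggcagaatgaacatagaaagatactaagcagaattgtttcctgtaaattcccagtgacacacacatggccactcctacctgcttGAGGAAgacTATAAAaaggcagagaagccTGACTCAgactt
Il1b: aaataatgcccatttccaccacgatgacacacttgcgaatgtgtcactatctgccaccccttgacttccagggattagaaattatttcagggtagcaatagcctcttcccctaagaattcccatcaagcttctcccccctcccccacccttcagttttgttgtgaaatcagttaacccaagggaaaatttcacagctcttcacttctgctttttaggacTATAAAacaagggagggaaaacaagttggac
Both held TATAAA, 32 bases before the start in Il1a and 31 in Il1b, and 12.4% of 32851 promoters of this length held it. Il1a also held GAGGAA, present in 23.3% of promoters, and TGANTCA, present in 6.75%. A match is a description of the letters only.

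Il1b, the main inducible ligand, was the most abundant of the 10 transcripts, and mature neutrophils held the highest level. In neutrophils as a class Il1b reached 1504, 3823 and 2065 CPM, and in their mature subset 6013, 9064 and 8093 CPM. The immature subset had 126 to 272 CPM, below each mature value. Among macrophage subsets, named by leading genes, the Arg1 Spp1 subset spread most widely, at 355, 912 and 6838 CPM. Inflammatory monocytes had 904, 1323 and 2709 CPM, and C1q Mrc1 macrophages only 136, 129 and 266 CPM. Conventional dendritic cells (963, 1335 and 2738 CPM) and mast cells and basophils (2649, 295 and 1227 CPM) overlapped both neutrophils and macrophages. Mast cells and basophils numbered only 20 to 40 cells per wild-type library. In mesenchymal cells Il1b was at 17.6 to 27.3 CPM, far below the 473 to 731 CPM of the free RNA.

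Il1a, which acts without cleavage by caspase-1, was found in fewer cells. Mature neutrophils had 83.2, 474 and 623 CPM and Arg1 Spp1 macrophages 13.1, 73.8 and 765 CPM, and these ranges overlapped. Inflammatory monocytes followed at 13.9 to 40.3 CPM. Immature neutrophils, conventional dendritic cells, mesenchymal and endothelial cells averaged 0.509 to 1.06 CPM, against 8.45 to 47.4 CPM in free RNA. Replicate 1 was the lowest wild-type library for Il1a in mature neutrophils, monocytes and Arg1 Spp1 macrophages alike.

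Il18, which is made by many cells at rest, followed macrophages and not neutrophils. The macrophage class had 50.4, 50.7 and 34.9 CPM, above conventional dendritic cells at 12.9 to 31.1 CPM. Osteoclasts, the lowest of the macrophage subsets tested for Il18, Il1b and Il1a alike, averaged 1.06, 44.1 and 0 CPM. Among the other macrophage subsets the order of Il18 means ran against that of Il1b and Il1a. C1q Mrc1 macrophages had 80.3, 85.7 and 47.6 CPM and MHC-II macrophages 73.6, 73.9 and 62.4 CPM, whereas Arg1 Spp1 macrophages had 14.9 to 22.8 CPM. Mature neutrophils had 16.0 to 24.6 CPM.

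Il33, an alarmin stored in the nucleus of stromal cells, lay almost wholly in mesenchymal cells, which held 96.7% ± 1.08 of its UMIs (SD, n = 3). Their level was 42.7, 35 and 37.2 CPM, and none of the other classes tested averaged above 3.10 CPM. Pi16 Dpp4 fibroblasts, a subset named by markers of universal fibroblasts, had 128, 188 and 435 CPM. Cxcl5 Saa3 fibroblasts (20.4 to 58.4 CPM) and dividing mesenchymal cells (35.5 to 47.8 CPM) lay below all 3 of these values. Aspn Postn fibroblasts had 7.09 to 26.6 CPM.

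**Figure D1:**
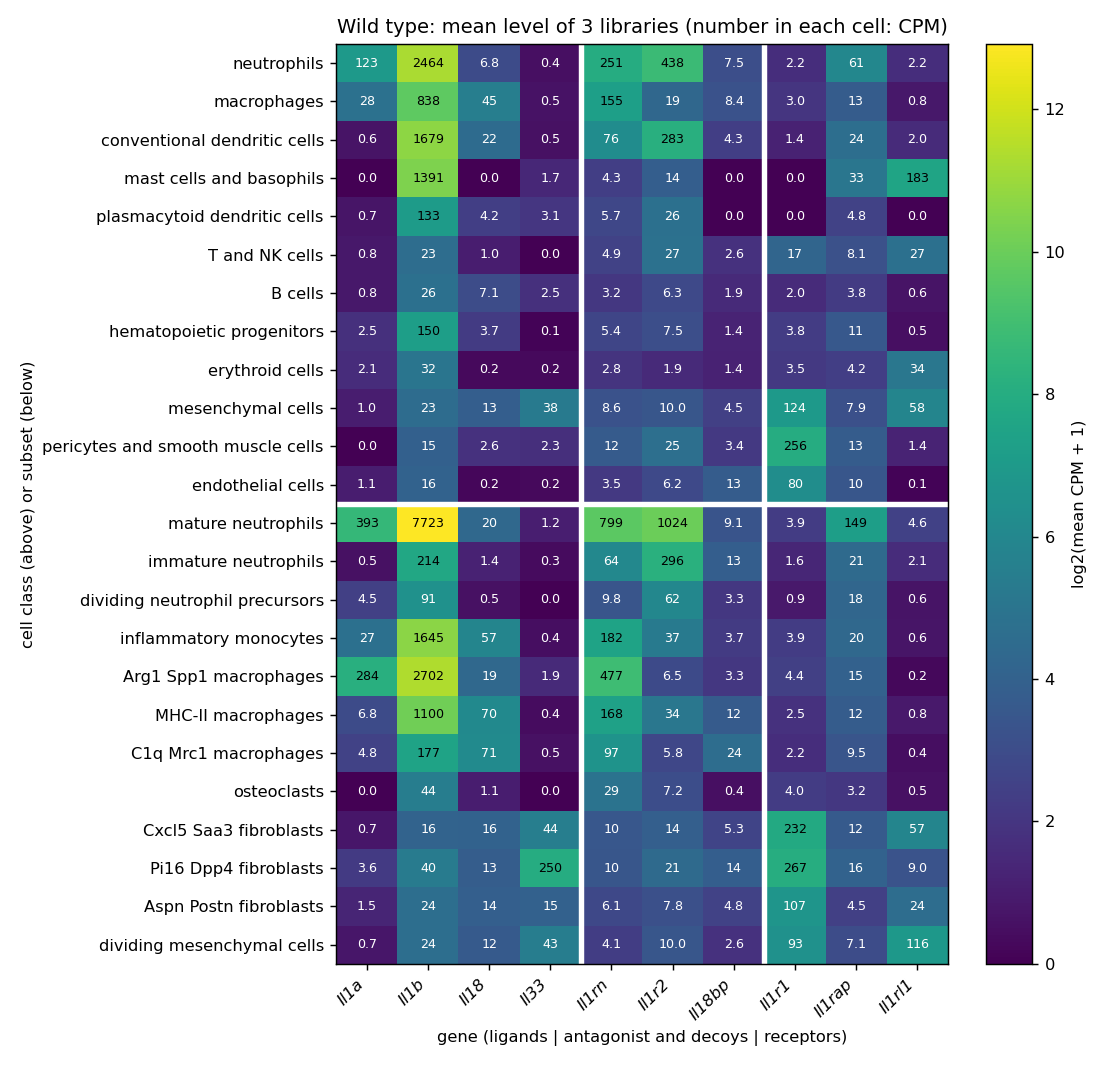
Heat map of the mean level of each gene (columns: ligands, antagonist and decoys, receptors) over the 3 wild-type libraries in 12 cell classes and, below the white line, in subsets of neutrophils, macrophages and mesenchymal cells. The number in each cell is the mean CPM and the color its log2 after adding 1. Il1b is brightest in mature neutrophils, Il1r1 in pericytes and fibroblasts, Il33 in mesenchymal cells and Il1rl1 in mast cells and basophils, followed by dividing mesenchymal cells.

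The antagonist Il1rn had its highest means, among the subsets tested, in mature neutrophils and Arg1 Spp1 macrophages, as Il1b and Il1a did. Mature neutrophils had 229, 651 and 1518 CPM and Arg1 Spp1 macrophages 286, 394 and 750.4 CPM. Inflammatory monocytes (158 to 216 CPM) and MHC-II macrophages (137 to 218 CPM) followed. Free RNA of this gene stood at 58.3, 97.2 and 116 CPM. Conventional dendritic cells and mast cells and basophils, both rich in Il1b, averaged 76.0 and 4.27 CPM of Il1rn. C1q Mrc1 macrophages had 86.7, 85 and 119.8 CPM, below the free RNA in replicate 2 and close to it in replicate 3. Immature neutrophils, which had little Il1b, had 68.1, 56.9 and 67.4 CPM, above the free RNA in replicate 1 and below it in replicates 2 and 3. Osteoclasts at 26.8 to 32.6 CPM and mesenchymal cells at a mean of 8.65 CPM lay below it in each library.

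Within a library, the ratio of Il1rn to Il1b UMIs shows how much antagonist transcript stood beside ligand. Over all classed cells its log2 was -2.97 ± 0.19 in wild type, and in neutrophils -3.48 ± 0.98 (SD, n = 3). In C1q Mrc1 macrophages it was -0.65, -0.60 and -1.15, the closest to parity of the macrophage and neutrophil subsets in replicates 2 and 3. Arg1 Spp1 macrophages ran from -0.31 in replicate 1 to -3.19 in replicate 3, the library where their Il1b was highest.

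The decoy Il1r2 was highest in mature and immature neutrophils and in conventional dendritic cells. It had 990.5, 1604 and 478 CPM in mature neutrophils, 257, 391 and 239.7 CPM in immature neutrophils and 57.9, 93.3 and 36.2 CPM in dividing precursors. The mature, immature and dividing ranges did not overlap, but the precursors lay below the free RNA of each library (113, 140 and 52.9 CPM). Conventional dendritic cells had 223, 309 and 316 CPM. Macrophages stood far lower, at 24.6, 20.9 and 11.6 CPM, also below the free RNA. Within macrophages, inflammatory monocytes (21.0 to 47.1 CPM) and MHC-II macrophages (23.4 to 40.4 CPM) were above the Arg1 Spp1 and C1q Mrc1 subsets, which averaged 6.49 and 5.76 CPM.

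Il18bp was a rare transcript in every class, with its highest class level in endothelial cells at 14.7, 13.2 and 10.2 CPM. C1q Mrc1 macrophages had 28.3, 23 and 20 CPM. They also had the highest mean of Il18, although MHC-II macrophages overlapped them for Il18 and were higher in replicate 3. The log2 ratio of Il18bp to Il18 in macrophages was -2.43 ± 0.07 in wild type (SD, n = 3).

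Il1r1, the signaling receptor for IL-1α and IL-1β, was stromal and vascular. Pericytes and smooth muscle cells had 242, 254 and 273 CPM, above mesenchymal cells at 128, 171 and 73.9 CPM and endothelial cells at 83.9, 63.0 and 93.7 CPM, which overlapped each other. Pi16 Dpp4 fibroblasts (161, 175 and 466 CPM) and Cxcl5 Saa3 fibroblasts (258, 269 and 168 CPM) were the highest mesenchymal subsets. Neutrophils, macrophages and conventional dendritic cells averaged 1.39 to 3.03 CPM, against 28.0 to 60.6 CPM in free RNA. The cells richest in ligand thus held almost none of the transcript for the signaling receptor.

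Il1r2 and Il1r1 are neighbors on chromosome 1, at chr1:40074079-40125231 and chr1:40225080-40317257 on the plus strand, and their promoters are shown because the 2 genes lay in different cells. The windows are chr1:40085843-40086092 for Il1r2, whose RefSeq start falls inside the GENCODE span, and chr1:40224830-40225079 for the first of 2 Il1r1 starts:
Il1r2: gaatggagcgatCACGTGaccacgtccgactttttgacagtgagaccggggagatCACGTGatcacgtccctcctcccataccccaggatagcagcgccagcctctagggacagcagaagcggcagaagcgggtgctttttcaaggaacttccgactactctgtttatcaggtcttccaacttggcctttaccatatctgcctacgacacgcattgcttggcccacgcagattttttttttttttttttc
Il1r1: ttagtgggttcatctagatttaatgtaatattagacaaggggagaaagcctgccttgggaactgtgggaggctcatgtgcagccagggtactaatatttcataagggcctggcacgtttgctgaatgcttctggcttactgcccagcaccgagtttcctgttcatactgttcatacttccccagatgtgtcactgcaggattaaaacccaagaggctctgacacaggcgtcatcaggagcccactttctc
Il1r2 held CACGTG 2 times, a motif in 6.02% of promoters, and no TATAAA. The Il1r1 window held none of the motifs searched, while its second start had 1 match to an NF-kappa-B motif, present in 3.90% of promoters.

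Il1rap, the chain shared by IL-1R1 and ST2, was highest in mature neutrophils at 85.9, 192 and 169 CPM, above immature neutrophils at 15.1 to 24.3 CPM. Macrophages had 10.6, 11 and 16.3 CPM. Pericytes, endothelial and mesenchymal cells, the classes with most Il1r1, averaged 12.5, 10 and 7.9 CPM. Free RNA of Il1rap stood at 15.1, 18.7 and 21.4 CPM, above these means and above macrophages in each library.

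Il1rl1, the receptor for IL-33, was highest in mast cells and basophils at 83.6, 204 and 259.8 CPM, and mesenchymal cells came next at 49.9, 50.3 and 73.8 CPM. Dividing mesenchymal cells had 97.5, 93.4 and 157 CPM, while Pi16 Dpp4 fibroblasts, highest for Il33, averaged 8.98 CPM of Il1rl1. This gene has 2 RefSeq starts, and UMIs summed per gene do not tell their transcripts apart. These levels therefore do not say which form of the protein was encoded. Erythroid cells (27.4 to 44.9 CPM) and T and NK cells (17.6 to 36.3 CPM) overlapped.

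Shares of cells with a UMI were read after each cell was thinned to 1000 UMIs, and their order was not always that of CPM. Il1b was detected in a mean of 57.0% of conventional dendritic cells and 53.1% of neutrophils, with overlapping ranges, while neutrophils had the higher mean CPM. Il1b was detected in 76.7% to 88.1% of mature neutrophils of the wild-type libraries (85.2% to 91.8% unthinned) and in 1.17% to 2.33% of B cells, which should lack it. Il1r2 was detected in 33.2% to 66.1% of mature neutrophils and 0.361% to 1.31% of B cells. Il1r1 was detected in 21.4% to 31.1% of pericytes and 0.181% to 0.437% of B cells. Thinning left out 2361 of the mature neutrophils, 143 B cells and no pericytes for having fewer than 1000 UMIs.

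Between wild-type classes, the 10 genes were tested in 1 edgeR quasi-likelihood fit with library as a block, and Benjamini-Hochberg adjusted p-values below 0.05 were called. In neutrophils against macrophages 7 were called higher and 1 lower, where 68.8% of all genes tested were called. The largest of these was Il1r2, with a log2 difference of 5.27 (SE 0.29, adjusted p = 7.19e-17), followed by Il1rap at 3.14 (SE 0.24), Il1a at 3.04 (SE 0.34) and Il1b at 2.53 (SE 0.46), while Il18 was lower by -1.89 (SE 0.23). The scaling by trimmed means (TMM) placed fitted differences of this contrast a median of 0.90 above those of CPM on the log2 scale. Il18bp, called higher in neutrophils by the fit at 0.74 (SE 0.20), averaged 7.48 CPM in neutrophils and 8.38 CPM in macrophages, so its direction rests on the scaling.

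Against mesenchymal cells, neutrophils had 6 of the 10 genes called higher and 3 lower (82.3% of all genes called), with the fitted differences a median of 0.99 above those of CPM. Il1b differed by 7.73 (SE 0.58) and Il1r1 by -4.84 (SE 0.33) on the log2 scale. Macrophages against mesenchymal cells gave 7 higher and 3 lower (71.3% called), and here Il33 differed by -6.03 (SE 0.25) and Il1rl1 by -6.04 (SE 0.26). In endothelial against mesenchymal cells only Il18bp was called higher, at 1.34 (SE 0.21), and 5 genes lower (52.9% called), with a median shift of -0.19. In mast cells and basophils against neutrophils only Il1rl1 was called higher, at 5.28 (SE 0.32), and 7 genes lower (32.7% called), with a median shift of -1.07. Of these 7, Il1a, Il18 and Il18bp averaged 0 CPM in mast cells and basophils. For Il1b (-1.79, SE 0.47) and Il1rap (-1.91, SE 0.46) the CPM ranges of both classes overlapped. In conventional dendritic cells against macrophages only Il1r2 was called higher, at 4.02 (SE 0.28), and 4 genes were called lower (28.8% called). With 28.8% to 82.3% of all genes called, a call between classes is common, and these values serve to place the 10 genes. In the last contrast, 2 in place of 5 genes were called without wild-type replicate 1.

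By the UMIs themselves, neutrophils held 71.5% ± 10.6 of all Il1a, 60.3% ± 13.5 of all Il1b, 80.6% ± 1.88 of all Il1r2 and 51.9% ± 4.38 of all Il1rap UMIs in wild type (SD, n = 3). Macrophages held 50% ± 13.7 of Il1rn, 62.5% ± 9.94 of Il18 and 35.3% ± 3.72 of Il18bp. Neutrophils held a similar part of Il1rn, 43.0% ± 14.4, and more than macrophages in replicate 3 (57.5% against 37.6%). Mesenchymal cells held 80.3% ± 5.17 of Il1r1 and 91.3% ± 1.95 of Il1rl1, more cells than the pericytes or mast cells that had the higher levels.

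In Nlrp3-/- libraries the neutrophil shares were lower, at 43.4% ± 4.28 of Il1a, 36.7% ± 9.03 of Il1b, 71.8% ± 5.60 of Il1r2 and 34.1% ± 11.1 of Il1rap UMIs. For each of these 4 genes the 3 knockout libraries lay below the 3 wild-type ones. The mesenchymal share of Il1rl1 was also lower in all 3, at 84.5% ± 3.56. An exact two-sided permutation test gave p = 0.1 for each of these 5 shares, the smallest that 3 against 3 libraries allow, and 0.2 after adjustment over 10 shares. The other 5 shares gave exact permutation p-values of 0.3 to 0.9. These shares depend on how many cells each class held, and neutrophils were fewer in the Nlrp3-/- libraries. The mature part of neutrophils, with the highest Il1a, Il1b, Il1r2 and Il1rap, was 52.7% to 72.8% in wild type and 20.4% to 55.8% in Nlrp3-/-. Its part in these shares was not tested.

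**Figure D2:**
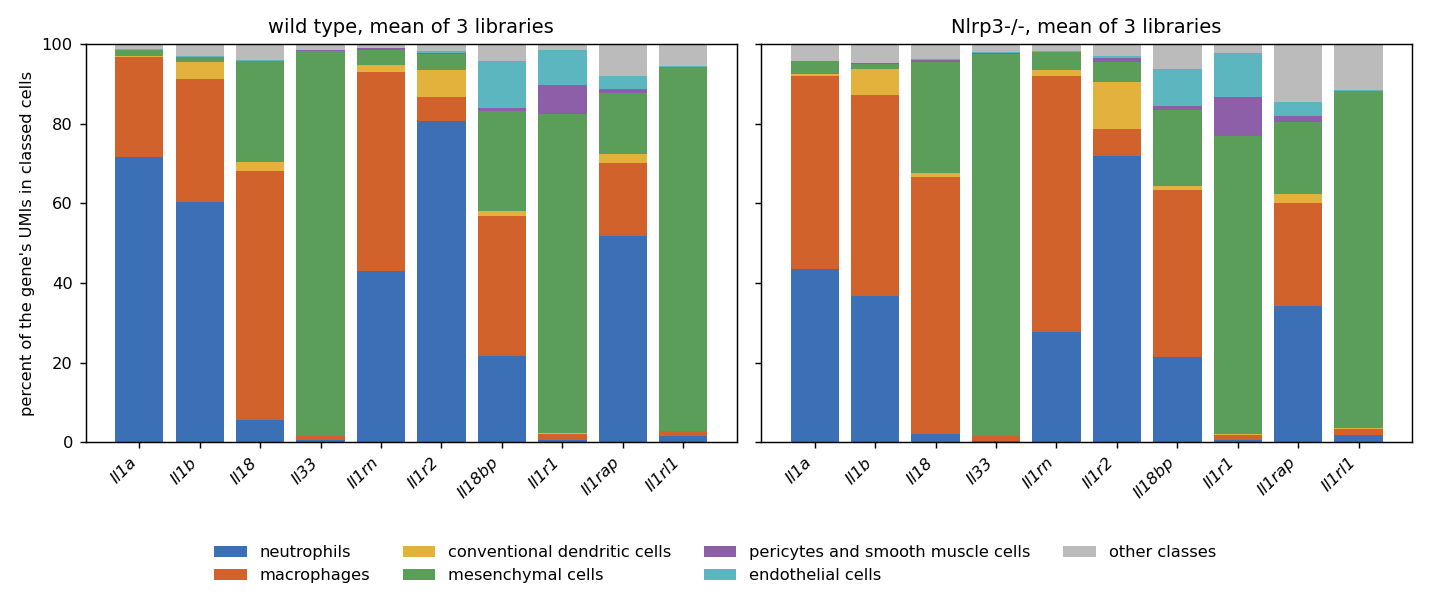
Stacked bars of the percentage of each gene's UMIs over all classed cells that lay in each cell class, as the mean of 3 wild-type libraries (left) and of 3 Nlrp3-/- libraries (right). Neutrophils (blue) hold 60.3% of Il1b in wild type and 36.7% in Nlrp3-/-, while Il33 stays with mesenchymal cells (green) at 96.7% and 95.9%.

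Between genotypes, each class was tested in its own edgeR quasi-likelihood fit over all its genes, and of 62 tests of these 10 genes 2 passed an adjusted p of 0.05. These were Il1r2, which fell in Nlrp3-/- macrophages, and Il1b, which fell in erythroid cells. Of the 62 fitted differences 39 were lower in Nlrp3-/- and 23 higher, and 15 had an unadjusted p below 0.05. Over all genes in the same classes, 48.1% of tests were lower in Nlrp3-/- and 16.1% had an unadjusted p below 0.05. The share of all genes called was 0.411% in macrophages, where 1 of 10 was called, and 9.54% in erythroid cells, where 1 of 2 was called. No gene of the 10 was called in neutrophils (0.334% of all genes called), mesenchymal cells (0.115%), endothelial cells (0.456%), pericytes (0.44%), conventional dendritic cells (1.4%) or plasmacytoid dendritic cells (0.412%). None was called in T and NK cells (0.884%), B cells (0.288%) or hematopoietic progenitors (0.454%). Mast cells and basophils were too few in the Nlrp3-/- libraries for a test. By DESeq2 4 were called, where 3.29% of the tests of all genes were called, and over all alternatives the count ran from 0 to 10. For the alternatives other than DESeq2 the share of all genes called was not taken, so this range cannot be read as particular to these genes.

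Il1r2 lay lower in Nlrp3-/- in each of the 9 classes and 10 subsets in which it was tested. By the sign of the fit, Il1a was also lower in each of 3 classes and 5 subsets, with 1 subset at an unadjusted p below 0.05. By the same sign, Il18 was lower in each of 6 classes and in 7 of 9 subsets. Il1r1 was lower in each of 5 subsets and in 3 of 7 classes. In macrophages Il1r2 had 24.6, 20.9 and 11.6 CPM in wild type and 6.29, 6.21 and 6.13 CPM in Nlrp3-/- replicates 1, 2 and 3, from 1271 and 380 UMIs. The groups did not overlap, and the fitted log2 difference was -1.80 (SE 0.28, edgeR adjusted p = 0.0479). In neutrophils, which held most of its UMIs, it had 333, 777 and 206 CPM in wild type and 206, 112 and 135 CPM in Nlrp3-/-, a log2 difference of -1.79 (SE 0.53, unadjusted p = 0.0102 and adjusted p = 0.264 by edgeR). DESeq2 gave an adjusted p of 0.00859 there. Leaving out 1 library gave edgeR differences from -2.16 without Nlrp3-/- replicate 1 to -1.05 without wild-type replicate 2, with adjusted p-values of 0.0772 and 0.652. The neutrophil subsets differed less than the class, by -1.03 in mature, -0.93 in immature and -1.11 in dividing cells. The mature part, richest in Il1r2, was 52.7% to 72.8% of neutrophils in wild type and 20.4% to 55.8% in Nlrp3-/-. Its part in the class difference was not tested. Conventional dendritic cells, the other class rich in Il1r2, differed least, with 223 to 316 CPM in wild type and 234 to 272 CPM in Nlrp3-/- (-0.37, SE 0.17, adjusted p = 0.220). Of the 9 classes, 7 had an unadjusted p below 0.05, and in macrophages, endothelial cells and hematopoietic progenitors the groups did not overlap. In the progenitor sums 12 neutrophil markers totaled 10865 to 16251 CPM in wild type and 6625 to 8229 CPM in Nlrp3-/-. Their part in the progenitor difference was not tested.

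**Figure D3:**
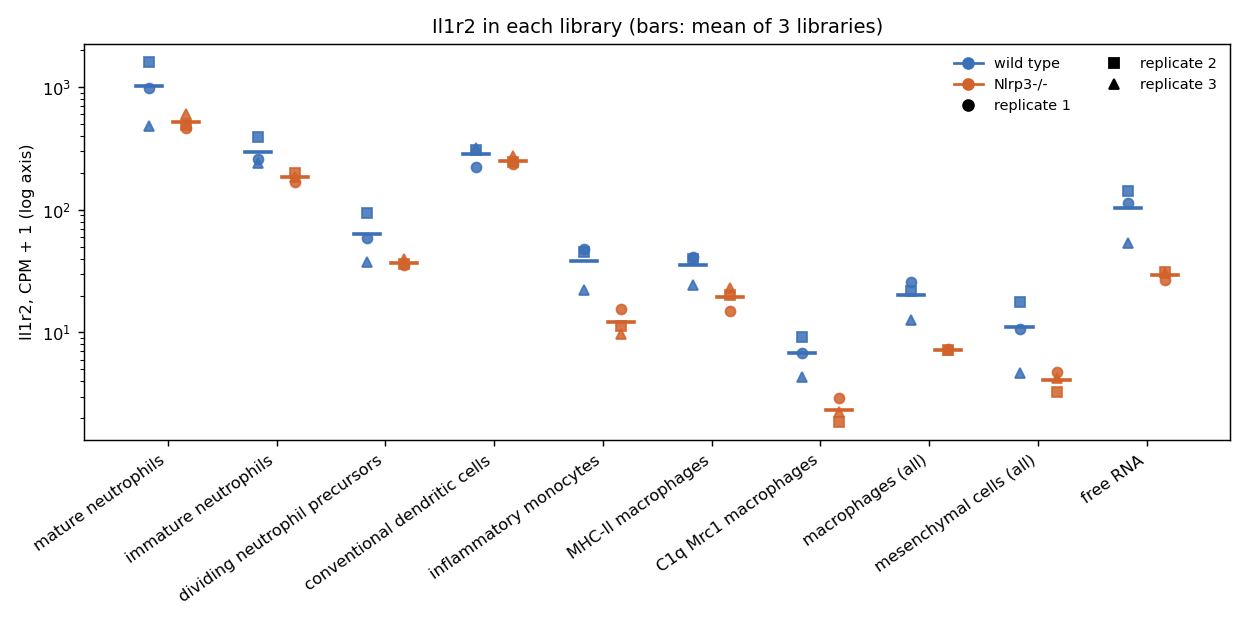
Il1r2 level in each library (CPM plus 1, log axis) in 9 cell classes or subsets and in free RNA, with wild type in blue, Nlrp3-/- in orange, symbols for the replicate and bars for the mean of 3 libraries. In macrophages the 3 knockout libraries sit at 6.13 to 6.29 CPM, below the 11.6 to 24.6 CPM of wild type, while conventional dendritic cells overlap and free RNA falls from 52.9 to 140 CPM down to 25.7 to 30.4 CPM.

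Within subsets, Il1r2 passed the test in inflammatory monocytes, with 47.1, 44.3 and 21.0 CPM in wild type and 14.5, 10.2 and 8.64 CPM in Nlrp3-/- (-1.93, SE 0.34, edgeR adjusted p = 0.0420). It also passed in C1q Mrc1 macrophages, where it averaged 5.76 and 1.33 CPM from 65 and 16 UMIs (-2.28, SE 0.44, adjusted p = 0.0418). The share of all genes called was 0.406% in the first and 0.819% in the second. Immature neutrophils had 257, 391 and 239.7 CPM in wild type and 166, 197 and 185 CPM in Nlrp3-/-, with no overlap (-0.93, SE 0.22, adjusted p = 0.0736). In mature neutrophils the ranges overlapped, at 478 to 1604 and 468 to 603 CPM (-1.03, SE 0.41, adjusted p = 0.677). All 10 subsets had an unadjusted p below 0.05, and in 5 of them the groups did not overlap. Classes and subsets share cells and free RNA, so these counts are not independent of each other.

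Values that moved with Il1r2 in macrophages were the free RNA of the same gene, at 52.9 to 140 CPM in wild type and 25.7 to 30.4 CPM in Nlrp3-/-, and the markers of neutrophils and of macrophages. The summed level of 12 neutrophil markers in macrophages was 1570 to 2870 CPM in wild type and 1006 to 1279 CPM in Nlrp3-/-, with none of the 12 at 0. Per 1000 such marker UMIs, macrophages held 5.82 to 13.3 UMIs of Il1r2 in wild type and 4.79 to 6.25 in Nlrp3-/-, against 0.587 to 2.32 and 0.336 to 0.666 in neutrophils. The 15 macrophage markers summed to 15842 to 17077 CPM in wild type and 18289 to 22921 CPM in Nlrp3-/-. Markers of conventional dendritic cells summed to 25.0 to 28.0 and 18.3 to 34.0 CPM. After subtraction of free RNA at 10% of the UMIs, the difference was -1.56 with an adjusted p of 0.0943. The macrophage call was kept without wild-type replicate 3 (adjusted p = 0.000706) and was lost without wild-type replicates 1 and 2 (0.162 and 0.140) or Nlrp3-/- replicates 1, 2 and 3 (0.142, 0.165 and 0.251), while the difference stayed between -2.08 and -1.53. This call was also lost with doublets kept (0.0795), at resolution 2 (0.0636), with set-aside cells kept (0.0502) and with the replicate number as a block (0.105). When 1 library was left out, the monocyte and C1q Mrc1 calls were likewise kept only without wild-type replicate 3, and without each other library had adjusted p-values of 0.0685 to 0.312 and 0.103 to 0.245. The C1q Mrc1 call was also lost with the replicate number as a block. The macrophage value was named after it was seen, since its wild-type mean of 19.0 CPM lay under the 20 CPM set for printing single differences.

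Over all classed cells, the log2 ratio of the decoy Il1r2 to the receptor Il1r1 was 1.03, 0.53 and 0.27 in wild type and -0.98, -0.67 and -1.64 in Nlrp3-/-. Each wild-type library thus held more decoy than receptor UMIs, and each Nlrp3-/- library fewer. The difference was -1.71 (exact two-sided permutation p = 0.1, the smallest possible, 0.4 after adjustment over 8 ratios), and cell numbers enter it. Within mesenchymal cells alone the ratio averaged -3.81 and -5.03 (exact permutation p = 0.1). There Il1r2 averaged 9.98 CPM in wild type, under the free RNA.

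No ligand passed the genotype test in the cells that held most of it, and the libraries of each group spread widely for Il1b and Il1a. Il1b in neutrophils had 1504, 3823 and 2065 CPM in wild type and 4413, 571 and 932 CPM in Nlrp3-/- (-0.49, SE 0.78, edgeR adjusted p = 0.799). In mature neutrophils alone it had 13574, 7080.4 and 9123 CPM in Nlrp3-/- against 6013 to 9064 CPM, a difference of 0.35 (SE 0.37). In macrophages it had 466, 530.4 and 1518 CPM in wild type and 1503, 555 and 751 CPM in Nlrp3-/- (0.06, SE 0.50, adjusted p = 0.956). Leaving out 1 library at a time turned the sign of the Il1b difference in both classes. Conventional dendritic cells had 3478, 1530.1 and 2751 CPM in Nlrp3-/-, 0.46 higher (SE 0.32, adjusted p = 0.419).

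Il1b in erythroid cells, a class not known to make it, passed the test at -2.31 (SE 0.50, edgeR adjusted p = 0.00773). It rested on 122 and 24 UMIs, at 34.8, 14.8 and 45.6 CPM in wild type and 16.9, 4.71 and 0 CPM in Nlrp3-/-, so the groups overlapped. Its wild-type mean of 31.7 CPM lay far below the 631 CPM of free RNA. In the same sums the markers of mast cells and basophils, endothelial cells and plasmacytoid dendritic cells were lower in Nlrp3-/- without overlap and those of mesenchymal cells higher, at the levels given with Il1rl1, and their part was not tested. Leaving out 1 library moved the difference from -3.20 without Nlrp3-/- replicate 1 to -1.69 without Nlrp3-/- replicate 2. The call was lost by DESeq2 (adjusted p = 0.201), without Nlrp3-/- replicate 2 (0.158), with doublets kept (0.227) and with the set-aside cells kept (0.717). No value was obtained at resolution 2, where no erythroid class was tested, or after subtraction of 10% free RNA, which left 0 UMIs of Il1b in this class in each library.

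Il1a in neutrophils had 20.6, 195 and 152 CPM in wild type and 198, 4.34 and 12.2 CPM in Nlrp3-/- (-0.92, SE 1.33, adjusted p = 0.779). This difference was -4.19 without Nlrp3-/- replicate 1 (adjusted p = 0.0628) and -0.34 without wild-type replicate 2 or Nlrp3-/- replicate 2. In mature neutrophils alone Il1a averaged 393 CPM in wild type and 267 CPM in Nlrp3-/- (-0.50, SE 0.87). The part of the mature share in the class difference was not tested. In Arg1 Spp1 macrophages Il1a had 389.6, 104 and 30.7 CPM in Nlrp3-/- against 13.1 to 765 CPM. Wild-type replicate 3 and Nlrp3-/- replicate 1 were the highest libraries of their groups for Il1a, Il1b and Il1rn in that subset and in free RNA. Il18 in macrophages (-0.30, SE 0.24, adjusted p = 0.5) and in conventional dendritic cells (-0.77, SE 0.38, adjusted p = 0.247) did not pass, nor did Il33 in mesenchymal cells, with 28.9, 44.8 and 39.2 CPM in Nlrp3-/- (-0.08, SE 0.19, adjusted p = 0.846).

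**Figure D4:**
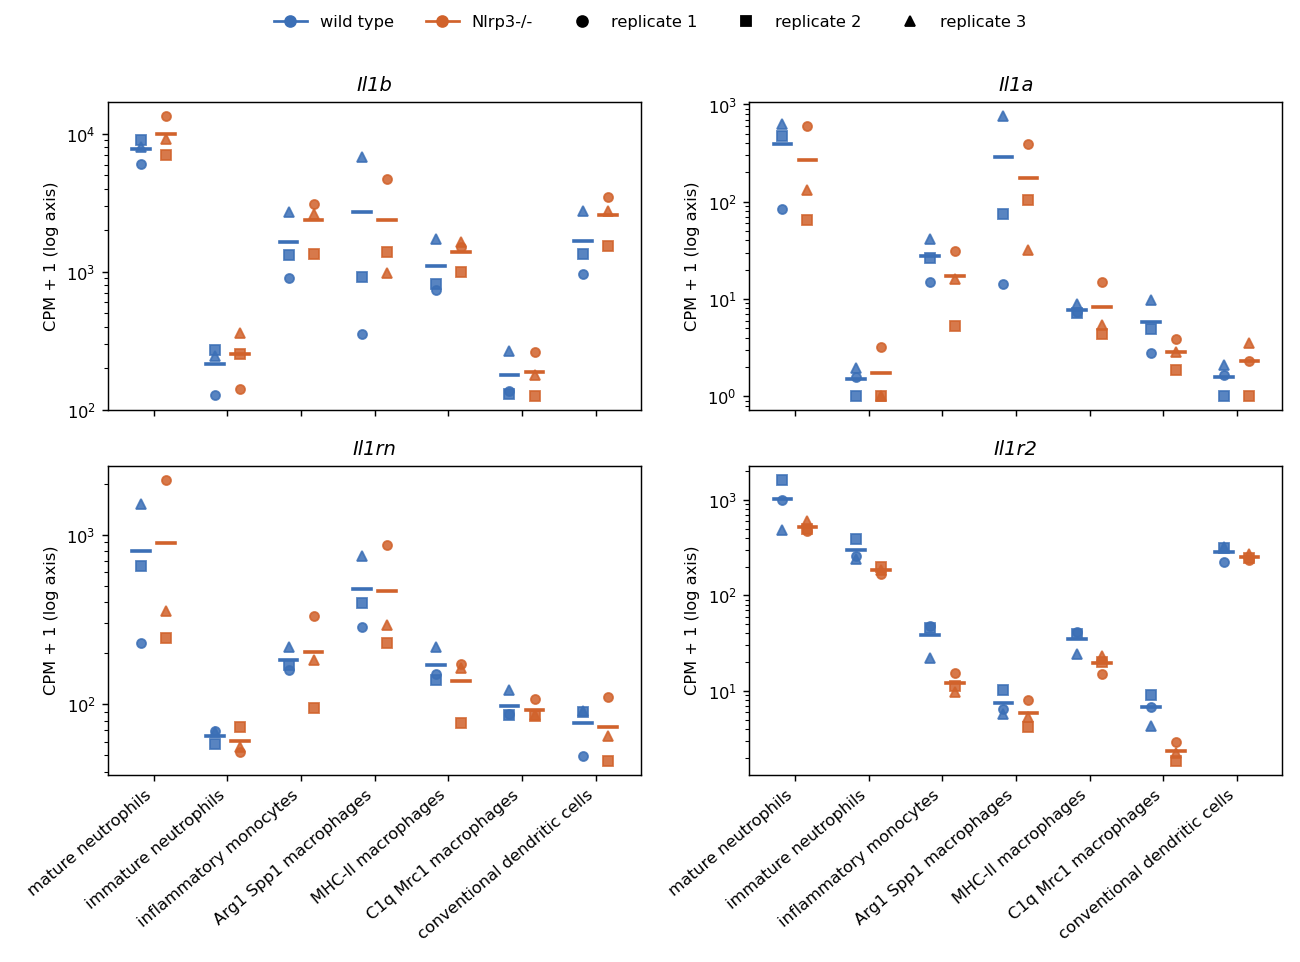
Il1b, Il1a, Il1rn and Il1r2 levels (CPM plus 1, log axes) in 7 myeloid subsets or classes, 1 symbol per library, with wild type in blue, Nlrp3-/- in orange and bars for the mean of 3 libraries. Il1b, Il1a and Il1rn overlap between genotypes in mature neutrophils and Arg1 Spp1 macrophages, and wild-type libraries of the Arg1 Spp1 subset spread from 355 to 6838 CPM for Il1b, while Il1r2 lies lower in Nlrp3-/- in inflammatory monocytes.

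Il1rn had 691, 39.7 and 48.9 CPM in Nlrp3-/- neutrophils against 76.4, 283 and 393 CPM in wild type (-0.06, SE 1.10, adjusted p = 0.990). In mature neutrophils alone it differed by 0.23 (SE 0.87). In macrophages it had 266, 73.4 and 118 CPM against 140.3, 138 and 186 CPM (-0.14, SE 0.42, adjusted p = 0.873). The log2 ratio of Il1rn to Il1b was -3.59 ± 0.82 in Nlrp3-/- neutrophils (exact permutation p = 0.8) and -3.03 ± 0.37 over all classed cells (p = 0.8, SD, n = 3, exact permutation). In osteoclasts Il1rn, at levels below the free RNA, had 14.6, 8.43 and 17.6 CPM in Nlrp3-/- against 28.5, 32.6 and 26.8 CPM, with no overlap, and missed the threshold (-1.22, SE 0.29, adjusted p = 0.0592, 0.673% of all genes called). Il18bp passed in no class, and its ratio to Il18 in macrophages was -2.19 ± 0.51 in Nlrp3-/- (exact permutation p = 0.7).

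Receptor chains passed the genotype test in no class or subset. Il1r1 had 256, 309.6 and 349.8 CPM in Nlrp3-/- pericytes (0.14, SE 0.16, adjusted p = 0.702), 116, 65.4 and 125 CPM in mesenchymal cells (-0.36, SE 0.35, adjusted p = 0.625) and 109.5, 121 and 82.1 CPM in endothelial cells (0.24, SE 0.17, adjusted p = 0.443). Il1rap in neutrophils differed by -0.41 (SE 0.62, adjusted p = 0.793) and in conventional dendritic cells by 0.35 (SE 0.37, adjusted p = 0.623). In mature neutrophils alone it differed by 0.11 (SE 0.46).

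Il1rl1 pointed in different directions. In mesenchymal cells it had 40.2, 39.1 and 31.4 CPM in Nlrp3-/- against 49.9, 50.3 and 73.8 CPM, with no overlap (-0.72, SE 0.20, unadjusted p = 0.00849, edgeR adjusted p = 0.353). In the same mesenchymal sums 10 markers of mast cells and basophils, the class with most Il1rl1, totaled 11.9 to 28.5 CPM in wild type and 6.67 to 9.46 CPM in Nlrp3-/-, and 10 pericyte markers 943 to 1080 and 199 to 905 CPM. Those of conventional dendritic cells were higher in Nlrp3-/- without overlap, at 136 to 149 CPM in wild type and 159 to 172 CPM in Nlrp3-/-. The part of these lists in the mesenchymal difference was not tested. The subsets did not all follow the class. Aspn Postn fibroblasts averaged 23.7 CPM in wild type and 11.1 CPM in Nlrp3-/- (-0.91, SE 0.30). Dividing mesenchymal cells, the subset with most Il1rl1, averaged 116 and 164 CPM (0.37, SE 0.26) and Cxcl5 Saa3 fibroblasts 57.0 and 76.6 CPM (0.43, SE 0.59), both with overlap. In erythroid cells it had 45.6, 57.8 and 73.7 CPM against 27.4, 28.3 and 44.9 CPM, again with no overlap (0.68, SE 0.24, adjusted p = 0.0840). In the same erythroid sums 10 mesenchymal markers totaled 254 to 384 CPM in wild type and 571 to 1102 CPM in Nlrp3-/-, and 8 erythroid markers 9212 to 31895 and 28295 to 50937 CPM. Markers of mast cells and basophils (29.6 to 44.4 and 2.30 to 28.7 CPM), endothelial cells (71.7 to 97.0 and 42.0 to 49.5 CPM) and plasmacytoid dendritic cells (77.7 to 109 and 25.3 to 57.4 CPM) were lower in Nlrp3-/- without overlap. Their part in the erythroid difference was not tested. T and NK cells had 35.6, 70.9 and 102 CPM against 17.6, 36.3 and 25.8 CPM (1.22, SE 0.33, adjusted p = 0.103). In the T and NK sums the markers of mast cells and basophils totaled 18.8 to 33.4 CPM in wild type and 9.23 to 17.8 CPM in Nlrp3-/-, and 7 Schwann cell markers 55.3 to 66.5 and 69.9 to 107 CPM, and their part was not tested. None of these passed over all genes, although Il1rl1 in erythroid cells was called when the replicate number was added as a block.

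**Figure D5:**
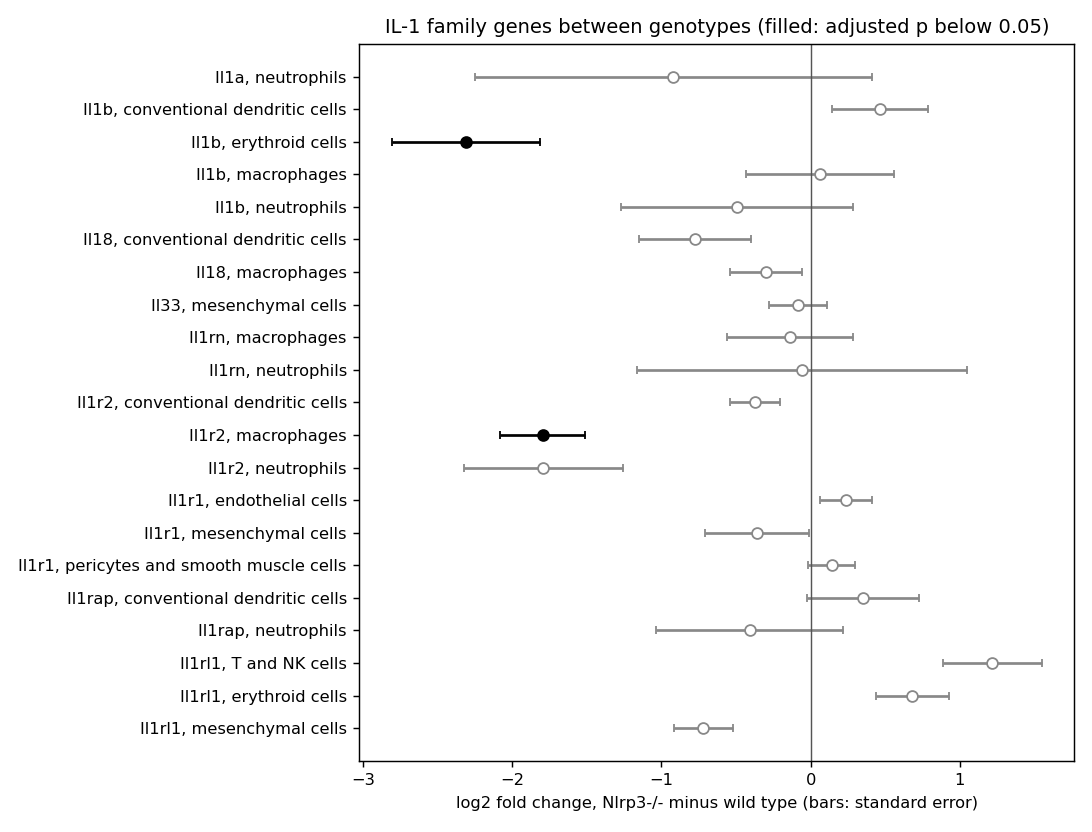
Log2 difference, Nlrp3-/- minus wild type, with its standard error for each gene in the classes where its wild-type mean was at least 20 CPM and above the free RNA, plus the called values. Filled points are the 2 with an adjusted p below 0.05, Il1b in erythroid cells at -2.31 and Il1r2 in macrophages at -1.80, and the ligand and antagonist points of neutrophils carry the widest errors, 0.78 to 1.33.

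Groups without overlap occurred in 8 of the 62 class tests, a smaller share than the 22.1% of the tests of all genes in these classes. Lower in Nlrp3-/- were Il1r2 in macrophages, endothelial cells and hematopoietic progenitors, Il18 in B cells and Il1rl1 in mesenchymal cells. Higher were Il1b in pericytes, Il1rap in hematopoietic progenitors and Il1rl1 in erythroid cells. Of 78 subset tests 2 were called, 50 were lower and 28 higher, 14 had an unadjusted p below 0.05 and 10 had no overlap. Over all genes in the subsets, 48.9% of tests were lower, 14% had an unadjusted p below 0.05 and 20.6% had no overlap. Of the 10 without overlap 5 were Il1r2, in inflammatory monocytes, C1q Mrc1 and MHC-II macrophages, Cxcl5 Saa3 fibroblasts and immature neutrophils, and the other lower ones were Il1b and Il1rl1 in Aspn Postn fibroblasts and Il1rn in osteoclasts. Il18bp in immature neutrophils and Il1rap in Aspn Postn fibroblasts were higher. None of the 10 genes was called in the remaining subsets. All genes there were called at 0.127% in mature neutrophils, 0.861% in immature neutrophils, 0.831% in dividing neutrophil precursors, 0.0991% in Arg1 Spp1 and 0.824% in MHC-II macrophages. The shares were 0.126% in Cxcl5 Saa3, 0.376% in Pi16 Dpp4 and 0.189% in Aspn Postn fibroblasts and 0.164% in dividing mesenchymal cells. All these were named after their values were seen.

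The wider pathway was read from 4 lists in neutrophils, macrophages, mesenchymal and endothelial cells. Of 14 genes that process or release IL-1, all tested in each class, only Nlrp3 was called, with 0 UMIs in each knockout library. In neutrophils its wild-type level was 269.9 to 1046.5 CPM, and in macrophages 102 to 217 CPM. Casp1, Pycard, Gsdmd and the other processing genes did not pass. Of 20 signaling genes none was called, with 0 to 3 per class at an unadjusted p below 0.05, and 2 were called by DESeq2. Over all genes, with the tests of all classes together, 16.1% had an unadjusted p below 0.05. That share was not taken for single classes, so such counts cannot be read as particular to a list. Of 26 target genes of IL-1, 19 to 25 were tested per class, 0 to 8 had an unadjusted p below 0.05 (8 of 25 in macrophages) and 1 was called. This was Cxcl1, a neutrophil-attracting chemokine, in endothelial cells (0.456% of all genes called), with 198, 136 and 86.1 CPM in wild type and 58.2, 30.5 and 46.2 CPM in Nlrp3-/- (-1.79, SE 0.32, adjusted p = 0.0425). This call was kept without wild-type replicate 3 (0.00216) and lost without wild-type replicates 1 and 2 (0.131 and 0.0736) or Nlrp3-/- replicates 1, 2 and 3 (0.104, 0.162 and 0.220). It was also lost with doublets kept (0.0623), at resolution 2 (0.107), with set-aside cells kept (0.171) and after subtraction of 10% free RNA (0.0683). Marker lists that moved without overlap in the same endothelial sums included macrophage markers (183 to 287 CPM in wild type and 343 to 539 CPM in Nlrp3-/-), mesenchymal markers (583 to 905 and 1198 to 1486 CPM) and endothelial markers (6276 to 7551 and 7840 to 8710 CPM). Their part in the Cxcl1 difference was not tested. The median difference of the target genes was -0.44 in neutrophils, -0.10 in macrophages, -0.26 in mesenchymal cells and -0.16 in endothelial cells, against medians over all genes of 0.00, 0.01, 0.04 and 0.01. No spread was computed for these medians, and they were not tested. In neutrophils 0 of 22 target genes had an unadjusted edgeR p below 0.05. The mature part of that class was 52.7% to 72.8% in wild type and 20.4% to 55.8% in Nlrp3-/-, and its part in the median was not tested.

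The list of other family members held 15 symbols, some of them second names of the same gene. Of these, 2 to 5 could be tested per class and none was called. Their highest wild-type class levels were 248 ± 139 CPM of Il18rap in mast cells and basophils, 155 ± 77.1 CPM of Il18r1 in T and NK cells and 125 ± 31.1 CPM of Il1f9, which encodes IL-36γ, in neutrophils (SD, n = 3). Both chains of the IL-18 receptor thus had their highest levels in other classes than the macrophages that held most Il18. Sigirr, a receptor that dampens IL-1 signaling, averaged 37.6 ± 5.34 CPM in endothelial cells.

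The genes whose wild-type levels were most like each of these, over 36 sums of 12 classes and 3 libraries among 9530 genes, are given as a description, since the sums share libraries. Il18bp, with no class mean of 20 CPM, was left out. Il1b was most like Ccr1 (Pearson r = 0.944) and then Nlrp3 (0.919), and Il1a was most like the formyl peptide receptor Fpr1 (0.895). Il1rn was most like Cd300ld (0.887) and Il1r2 most like Cd300lf (0.796). Il1r1 had the closest match of all, the netrin receptor Unc5b (0.952). Il33 was most like Itga11 (0.876), Il18 most like Rab7b (0.847), Il1rap most like Lrrfip2 (0.756) and Il1rl1 most like Homer2 (0.755).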

How the data were processed

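Single-cell RNA was measured in 6 libraries, 3 per genotype, with 10x Genomics 3′ chemistry. The authors deposited raw counts of UMIs per gene and barcode, 1 matrix per library. The file headers name Cell Ranger 4, the submitters' processing notes name Cell Ranger 2.1.1 and mm10, and replicates were not pooled in the files. The members and lists were chosen with earlier results of these data known.

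Cells were barcodes with 500 or more UMIs, 200 or more genes and no more than 10% mitochondrial UMIs that differed from free RNA (false discovery rate 0.01, 10000 simulated profiles). The highest doublet scores were removed at 0.8% per 1000 cells. Cells were clustered with scanpy 1.11.5 and leidenalg 0.10.2 (2000 variable genes, leaving out IL-1 family and sex-linked genes, Nlrp3, Chil3, Gzma and Tnmd, 30 principal components, 15 neighbours, resolution 1). Clusters were named from marker lists, with naming thresholds set after the clusters were seen. Clusters with over 75% of cells from 1 library and low depth were set aside (11212 cells), and 2032 cells stayed unnamed.

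Raw UMIs were summed per library and class or subset with at least 20 cells in every library. Sums were tested with edgeR 4.0.16 in R 4.3.3 (TMM, filterByExpr, quasi-likelihood, Benjamini-Hochberg over all genes, threshold 0.05), after a test on simulated data. Wild-type contrasts had library as a block. Shares and ratios were tested by exact two-sided permutation over 20 assignments, and ratios needed 20 UMIs of each gene. Single genotype differences of classes are printed where the wild-type mean was at least 20 CPM and above free RNA (a limit added after the data were seen) or where called, those of subsets were chosen after their values were seen, list genes where they passed or were the highest of the family, and the 3 genes most alike by Pearson correlation of log2(CPM + 1) were sought. Intervals were not computed, and precision follows from the UMIs given. Alternatives were RLE size factors, no low-count filter, DESeq2 1.42.0, the replicate number as a block, leaving out each library, 1000 UMIs per cell, doublets kept, resolution 2, set-aside cells kept and 10% free RNA subtracted.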

Additional observations from a re-analysis of the deposited data

Results flagged for a closer look

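Il1rl1 was the one gene of the 10 whose wild-type and knockout libraries lay apart without overlap in opposite directions in 2 classes. The log2 difference of its level between erythroid and mesenchymal cells was -0.84, -0.81 and -0.71 in wild-type replicates 1, 2 and 3, so mesenchymal cells had the higher CPM. In Nlrp3-/- replicates 1, 2 and 3 it was 0.18, 0.55 and 1.21, so erythroid cells had the higher CPM. The groups differed by 1.43 on the log2 scale. The gene was picked for this separation, so the exact permutation p of 0.1, the smallest that 3 against 3 libraries allow, was set by that choice and serves as no test. The erythroid values rested on 121 UMIs in wild type and 202 in Nlrp3-/-, and the mesenchymal values on 5036 and 3449, so most UMIs lay in mesenchymal cells in both groups. Markers of other classes also differed without overlap in the erythroid and mesenchymal sums, as given above with Il1rl1, and their part was not tested. Groups of 3 libraries are too small for a test of single outlying libraries, so none was made.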

How the results depend on the processing

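Between genotypes, 2 of the 62 tests of a gene in a class were called, and this count was the same with RLE size factors, at least 1000 UMIs per cell or the replicate block (2). It was 9 with no low-count filter, 4 by DESeq2, and 0 with doublets kept, resolution 2, set-aside cells kept or 10% free RNA subtracted, although Il1b in erythroid cells could not be tested at resolution 2 or after the subtraction. Leaving out 1 library gave 0 to 10: 1 without wild-type replicate 1, 2 or Nlrp3-/- replicate 3, 10 without wild-type replicate 3 and 0 without Nlrp3-/- replicate 2. Apart from DESeq2, the share of all genes called in these alternatives was not taken. A rise in the count therefore cannot be read as particular to these genes. With the replicate block, the fall of Il1r2 in macrophages was -1.71 (edgeR adjusted p = 0.105) and in C1q Mrc1 macrophages -2.07 (0.0610), so both calls were lost, while Il1rl1 in erythroid cells was called at 0.76 (0.0391). Same-numbered libraries correlated between -0.579 and 0.137, which gave no sign that the numbers pair them. This check cannot show that no batch was shared, and the labels name none. Cell-set alternatives were run for classes, not for subsets.

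Calls of target genes (1) became 8 with no low-count filter, 4 by DESeq2, 0 with doublets kept, resolution 2 or 10% free RNA subtracted, and 0 to 12 without 1 library (12 without wild-type replicate 3). Signaling calls (0) became 1 with no low-count filter, 2 by DESeq2 and 0 to 6 without 1 library (6 without wild-type replicate 3). Processing calls (4, all Nlrp3) became 2 with 10% free RNA subtracted and 2 to 8 without 1 library (8 without wild-type replicate 3, 2 without Nlrp3-/- replicate 3). Conventional dendritic cells against macrophages gave 5 calls, 3 with no replicate block, 3 with 10% free RNA subtracted and 2 to 5 without 1 library. The causes were not tested. Here too the share of all genes called was taken only for DESeq2, so these changes cannot be read as particular to the lists.

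Signs turned for these differences, none of which was called. Il1b in macrophages was -0.011 with doublets kept and -0.51 to 0.73 without 1 library. Without 1 library, Il1b in neutrophils was -2.02 to 0.020, Il1rn -2.78 to 0.47 in neutrophils and -0.86 to 0.21 in macrophages, Il1rap in neutrophils -1.42 to 0.083 and Il33 in mesenchymal cells -0.25 to 0.091. The Il1rn to Il1b difference was -0.57 to 0.44 in neutrophils and -0.27 to 0.10 over all cells, and with Il1a added -0.52 to 0.45 and -0.23 to 0.11. For Il18bp to Il18 it was -0.023 to 0.49 in macrophages and -0.10 to 0.32 over all cells. In percentage points, the macrophage share of Il18 differed by -2.37 with set-aside cells kept and by -3.37 to 6.38 without 1 library, that of Il18bp by -0.612 to 14.9 and the mesenchymal share of Il33 by -1.46 to 0.140.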

Other observations

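Cxcl12 Lepr stromal cells, a mesenchymal subset with too few cells for any test, had the highest mean Il1rn level in wild type outside mature neutrophils, although in replicate 3 the Arg1 Spp1 macrophages (750.4 CPM) were above them. The subset held 6, 14 and 7 cells in wild-type replicates 1, 2 and 3 and 0, 12 and 10 cells in Nlrp3-/-. Il1rn stood at 783, 619 and 611 CPM in wild type, from 112 UMIs in all, and at 572 and 1012 CPM in Nlrp3-/- replicates 2 and 3, from 88 UMIs. In Cxcl5 Saa3 and Aspn Postn fibroblasts of wild type it averaged 10.4 and 6.08 CPM. The subset was picked out after these values were seen. Markers of neutrophils and macrophages were not summed in it, and their part in its Il1rn level was not tested.

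In the Arg1 Spp1 macrophages, 1 library of each genotype stood far above the others for Il1b. Wild-type replicate 3 had 6838 CPM and Nlrp3-/- replicate 1 had 4722 CPM, against 355 and 912 CPM in the other wild-type libraries and 1398 and 976 CPM in the other knockout libraries. The same libraries led for Il1a (765 and 389.6 CPM) and Il1rn (750.4 and 866 CPM) in this subset, and for Il1rn in mature neutrophils (1518 and 2091 CPM). They also led their groups for these genes in free RNA, with Il1b at 731 and 857 CPM, so the lead was not confined to this subset. In mature neutrophils wild-type replicate 2 had the highest wild-type level of Il1b (9064 CPM). Nlrp3-/- replicate 1 was the library with 53.8% of its cells set aside and a median of 1813 UMIs.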
